A study of Homo sapiens with 6 samples.

Results

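The genes described here are 28 genes of sterol synthesis, its control by SREBP2, and sterol transport and storage, in liposarcoma cells treated with Apatinib. They were chosen by symbol as known members of this pathway, by a rule that uses no measured value but was written with earlier results of these data known, and each of the 28 symbols matched 1 row of the 57773 genes in the deposited count table. No lipoprotein receptor is among the 28. SW872 is a human liposarcoma cell line, and Apatinib is a small molecule inhibitor of the tyrosine kinase VEGFR-2. RNA was sequenced from 3 samples given 18 μM Apatinib for 24 h and from 3 untreated control samples, which the study's methods call biological replicates. All 6 came from the same line, grown in RPMI-1640 with fetal bovine serum, and the labels name no vehicle for the controls.

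Cells make cholesterol from acetyl-CoA. The first steps form mevalonate and the isoprenoid building blocks, then squalene, and the last steps close and trim the sterol ring in the endoplasmic reticulum (ER). SREBP2, the protein made from SREBF2, is the transcription factor that drives these genes. Its membrane-bound precursor is escorted from the ER to the Golgi by SCAP when sterols are low, and INSIG1 and INSIG2 hold SCAP back when sterols are high. INSIG1 and SREBF2 are themselves SREBP2 targets. Fat cells store much of their cholesterol in lipid droplets.

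Of the 28 genes, 4 passed the test for a difference between Apatinib and control, and these 4 were higher with Apatinib: INSIG1, TM7SF2, DHCR7 and SREBF2. Of all tested genes, 5.97% were called higher and 5.48% lower. Their promoters are shown because these are the genes the comparison turns on, and because SREBP2 acts on promoters through a short sterol element together with neighbouring CCAAT and GC boxes. Each line gives the 250 bases before the gene's start in RefSeq, build GRCh38.p14, on the gene's own strand. Capitals mark 3 motifs on either strand, TCACNCCAC for the sterol element, CCAAT, and GGGCGG for the GC box. Overlapping GC boxes run together.

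INSIG1, chr7:155297628-155297877, plus strand: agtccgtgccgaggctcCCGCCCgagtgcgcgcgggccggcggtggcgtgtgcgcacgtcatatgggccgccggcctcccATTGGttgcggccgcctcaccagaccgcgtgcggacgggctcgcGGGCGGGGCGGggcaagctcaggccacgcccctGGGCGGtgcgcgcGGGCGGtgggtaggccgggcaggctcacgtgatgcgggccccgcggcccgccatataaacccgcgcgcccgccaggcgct
SREBF2, chr22:41832855-41833104, plus strand: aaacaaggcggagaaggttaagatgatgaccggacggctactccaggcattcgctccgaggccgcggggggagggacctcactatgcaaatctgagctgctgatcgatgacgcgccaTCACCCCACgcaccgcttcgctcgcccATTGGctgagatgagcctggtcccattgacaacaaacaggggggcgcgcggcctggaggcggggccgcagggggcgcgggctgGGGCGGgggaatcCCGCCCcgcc
TM7SF2, chr11:65111622-65111871, plus strand: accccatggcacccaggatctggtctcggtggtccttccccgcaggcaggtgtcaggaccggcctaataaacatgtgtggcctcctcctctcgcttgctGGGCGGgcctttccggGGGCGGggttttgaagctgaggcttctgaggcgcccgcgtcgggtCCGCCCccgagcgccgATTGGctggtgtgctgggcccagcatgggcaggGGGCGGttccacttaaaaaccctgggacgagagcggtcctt
DHCR7, chr11:71448394-71448643, minus strand: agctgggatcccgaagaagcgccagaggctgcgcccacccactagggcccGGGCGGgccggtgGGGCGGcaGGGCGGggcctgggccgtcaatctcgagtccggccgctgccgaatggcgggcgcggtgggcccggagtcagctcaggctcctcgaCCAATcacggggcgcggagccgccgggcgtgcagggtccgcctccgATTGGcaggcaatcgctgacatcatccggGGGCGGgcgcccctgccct

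The SREBF2 promoter held the sterol element letters, starting 133 bases before the gene's start, with a CCAAT box starting 106 bases before it. The other 3 sequences held CCAAT and GC boxes and no match to these sterol element letters. RefSeq gives DHCR7 another start further upstream, at chr11:71449044-71449293, whose window held none of the 3 motifs. Of the 28 genes, 24 matched at least 1 RefSeq promoter, in 34 windows of 300 bases that reach 50 bases past the start. The sterol element letters were in 1 of the 34 and in 1.13% of all 35116 windows. CCAAT was in 61.8% of the 34 and in 34.6% of all windows, and GGGCGG was in 88.2% and 45.0%. A match describes the letters in these windows, and no match says nothing of SREBP2 at these genes.

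The 6 libraries held 17043314 to 22067558 counts, of which the 28 genes took 0.199% to 0.251% with Apatinib and 0.184% to 0.198% in control. Of the markers of the line, VIM and FN1 had mean levels of 1035 and 335 FPKM (fragments scaled to transcript length and library size), while of 8 adipocyte genes PPARG was at 21.7 FPKM, LPL at 2.66 FPKM, and FABP4, ADIPOQ and LEP were listed at 0. LPL was called higher with Apatinib (log2 fold change 0.84, edgeR FDR = 0.0237). The summed level of 6 mesenchymal markers was 1487 to 1688 FPKM with Apatinib and 1201 to 1309.6 FPKM in control, and that of 4 immune markers was 6.78 to 11.8 FPKM and 1.79 to 3.43 FPKM, with CD68 the 1 immune marker above 1 FPKM and PTPRC listed at 0. The count table held 0 counts for CD68 in 5 libraries and 1 in control 3, and 81.7% of its exonic bases in GENCODE 29 also belong to AC016876.2 on the same strand, so its FPKM is uncertain. The summed adipocyte markers were 23.1 to 32.3 FPKM and 21.9 to 24.4 FPKM, the epithelial ones 185 to 221 FPKM and 154 to 186 FPKM, and the endothelial ones 0.356 to 0.466 FPKM and 0.428 to 0.538 FPKM. The epithelial sum was nearly all KRT18 and KRT8 (means of 157 and 30.3 FPKM), with EPCAM at 0.059 and CDH1 at 0.0078 FPKM. Besides LPL, KRT8 (log2 fold change 0.71, edgeR FDR = 0.0166) and VWF (1.52, FDR = 0.0386) were called higher and CDH5 (-1.22, FDR = 0.0242) lower. VWF and CDH5 were near the floor, at 9 to 53 and 15 to 56 counts per library. The part of any of these cell type markers in the results below was not tested. In bulk RNA, fewer cells with a transcript and less of it per cell cannot be told apart.

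Facts about these libraries touch every value below. Controls 1 and 2 were nearly alike. The chi-square statistic comparing their counts averaged 2.27 over genes, while it averaged 18.2 to 44.5 for the remaining pairs of replicates. The labels give both as separate samples, so both were kept, and the counts were also tested without each. The other fact is GC content, the share of G and C bases in a gene's transcripts. Genes in the lowest of 10 equal bins of GC content had a median log2 fold change of -0.41 and those in the highest bin 0.22. In the lowest bin, the median deviation from the mean of all libraries was -0.40 in Apatinib 1, -0.16 in Apatinib 2, 0.36 in controls 1 and 2, and -0.05 and -0.08 in Apatinib 3 and control 3. Whether this trend arose in the cells or in making the libraries was not tested. A second fit with this trend removed from each library was therefore added after the data were seen, and its values are given beside the calls it changes and for most genes it moves.

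Values below are CPM, a gene's counts scaled to library size, unless FPKM is named. Fold changes are log2 values of Apatinib over control from edgeR's quasi-likelihood test over 16290 genes, with their standard error (SE) and the Benjamini-Hochberg false discovery rate (FDR). A gene was called when its FDR was under 0.05 and its log2 fold change over 0.5 in size, the limits of the study's own methods. All 28 genes were tested. Apatinib gave 4 called higher and 0 called lower among the 28. At an FDR under 0.05 with no limit on the fold, the counts were again 4 and 0, beside 2102 of all 16290 tested genes. At an unadjusted p under 0.05 they were 8 and 1. The share of all tested genes under that p is not given here, so these are not read as a result about the 28. DESeq2 called 5 higher, adding LSS, and 1 lower, TMEM97, beside 2046 of all 32596 genes in that fit. The median log2 fold change was 0.18 over the 28 genes and 0.00 over all tested genes, with 16 of the 28 above 0 and 12 below. The 3 Apatinib libraries lay above all 3 controls for 5 genes (17.5% of all tested genes did so) and below them for 2 (15.7% of all). None of the 28 was called without control 1, without control 2, or with controls 1 and 2 summed into 1 library, and 275, 300 and 292 of all tested genes were then called in place of 1866. In each of these edgeR fits 6 of the 28 were higher and 1 lower at an unadjusted p under 0.05, again with no share of all tested genes beside them. Without Apatinib 2, 8 of the 28 were called, beside 1493 of all 16762 tested genes. Without Apatinib 1, 2 of the 28 were called, beside 795 of 16822.

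**Figure D1:**
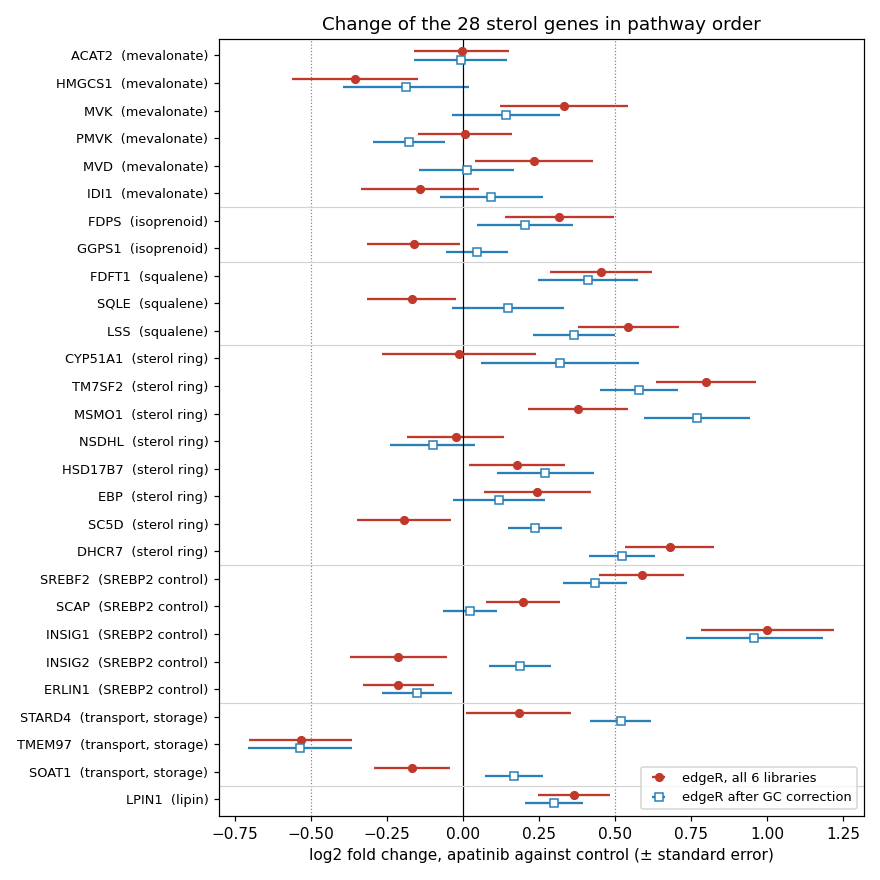
Log2 fold change of Apatinib over control for each of the 28 genes in pathway order, with bars of 1 SE (3 libraries a group). Filled circles are the test on all 6 libraries and open squares the same test after GC correction, dotted lines mark 0.5 and -0.5. INSIG1 lies highest at 1.00 and TMEM97 lowest at -0.53, and MSMO1 moves from 0.38 to 0.77 with the correction.

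The genes that control SREBP2 held the highest fold change of the 28. INSIG1, the ER protein that retains SCAP, stood at 307, 156 and 306 CPM in Apatinib 1, 2 and 3 and at 119, 124 and 142 CPM in controls 1, 2 and 3. Every Apatinib library was above every control, with Apatinib 2 far nearer to the controls than to the other Apatinib libraries. The log2 fold change was 1.00 (SE 0.22, edgeR FDR = 0.0173). It ranged from 0.85 to 1.26 when each library was left out in turn, and the FDR rose to 0.0850 without control 1.

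SREBF2, which encodes SREBP2, stood at 388, 295 and 329.9 CPM with Apatinib and at 215, 205 and 255 CPM in control. The groups did not overlap, and the log2 fold change was 0.59 (SE 0.14, edgeR FDR = 0.0233). After GC correction it was 0.43 (FDR = 0.0249), under the limit of 0.5, so that SREBF2 was no longer called. The FDR was 0.133 without control 2.

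The other 3 control genes did not pass the test. SCAP, the escort of SREBP2, stood at 102 to 123 CPM with Apatinib and 93.1 to 105 CPM in control (log2 fold change 0.20, SE 0.12, edgeR FDR = 0.3, and 0.023 after GC correction). INSIG2, the second retention protein, stood at 16.2 to 20 CPM and 17.8 to 23.8 CPM, with a log2 fold change of -0.21 that became 0.19 after GC correction. ERLIN1, an ER membrane protein that binds the SREBP2 and SCAP complex, was below every control in every Apatinib library, at 103, 90.7 and 93.2 CPM against 104, 110.3 and 118 CPM (log2 fold change -0.21, edgeR FDR = 0.246).

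INSIG1 responds to SREBP2 and INSIG2 much less, so their ratio was compared within each library. The log2 ratio of INSIG1 to INSIG2 in CPM was 4.25, 2.99 and 3.93 with Apatinib and 2.32, 2.42 and 2.99 in control. Apatinib 2 was level with control 3, and the other Apatinib libraries were above every control. The means were 3.72 ± 0.65 and 2.58 ± 0.36 (SD, n = 3 each), a difference of 1.15, which an exact two-sided permutation test did not separate (p = 0.2, where the smallest p it allows is 0.1). In FPKM the difference was 1.14 (exact permutation p = 0.1), and after GC correction it was 0.70 (exact permutation p = 0.3).

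**Figure D2:**
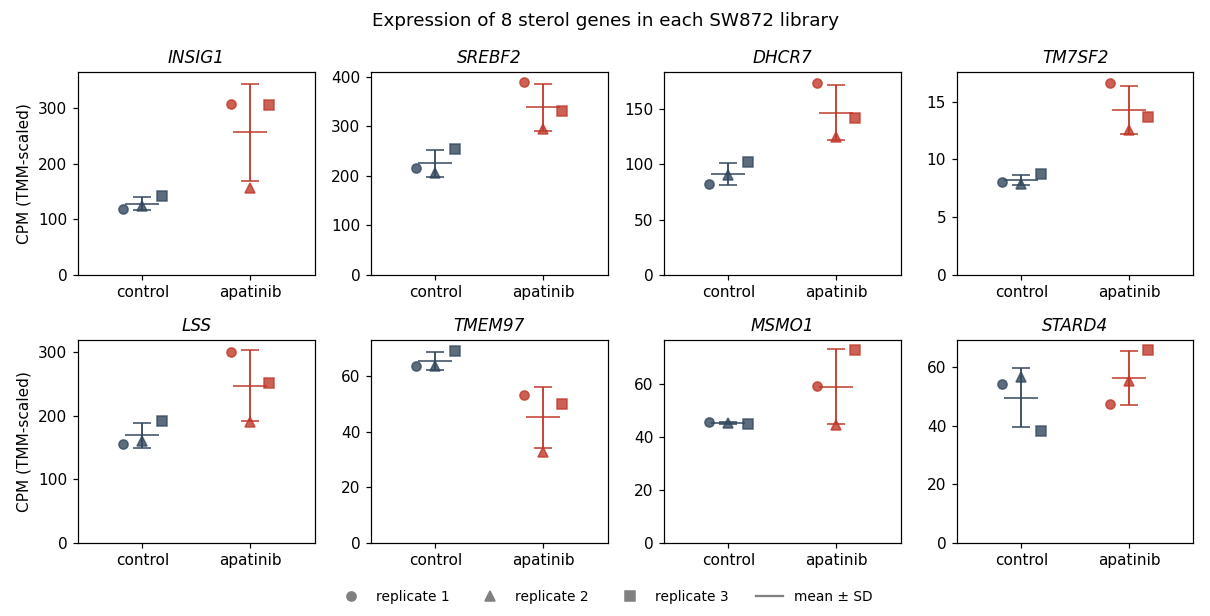
CPM of 8 of the genes in each library, on axes that start at 0, with the mean and SD of 3 libraries a group. Circles, triangles and squares are replicates 1, 2 and 3. Apatinib 2 is the lowest Apatinib library for INSIG1, SREBF2, DHCR7, TM7SF2, LSS, TMEM97 and MSMO1.

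The 6 genes described here for the steps from acetyl-CoA to the isoprenoid building blocks do not cover every enzyme of those steps. None of the 6 was called by edgeR or DESeq2, and the smallest unadjusted p was 0.115, for HMGCS1. The 6 genes had log2 fold changes between -0.35 and 0.33 with a median of 0.00. HMGCS1, the synthase that makes HMG-CoA, gave 59.3, 37.4 and 77.1 CPM with Apatinib and 73.5, 75.7 and 72.9 CPM in control. Apatinib 3 was thus above all controls and Apatinib 2 far below them, and the log2 fold change was -0.35 (SE 0.21, edgeR FDR = 0.275). MVK, the mevalonate kinase, had the highest fold change of the 6, at 36.0, 19.1 and 28.6 CPM against 19.3, 21.3 and 25.7 CPM (log2 fold change 0.33, SE 0.21, edgeR FDR = 0.312, and 0.14 after GC correction). The next kinase PMVK was at 12.3 to 14.4 CPM with Apatinib and 11.7 to 14.3 CPM in control, a log2 fold change of 0.01. MVD, the decarboxylase, gave 0.23 (0.013 after GC correction) and IDI1, the isomerase that makes the dimethylallyl unit, -0.14. ACAT2, the thiolase of the first step, gave -0.004 (26.9 to 39.8 CPM and 34.2 to 36.7 CPM). Exons of ACAT2 overlap those of SOD2 and TCP1 on the other strand in GENCODE 29, and whether the counting used strand is not given in the sources used here.

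The isoprenoid branch has FDPS, which makes farnesyl diphosphate for sterols, and GGPS1, which makes geranylgeranyl diphosphate for protein prenylation. FDPS gave 37.9, 22.4 and 32.1 CPM with Apatinib and 23.8, 23.8 and 26.5 CPM in control (log2 fold change 0.32, SE 0.18, edgeR FDR = 0.257). Its Apatinib 2 value was below all controls. GGPS1 gave 31.2 to 42.1 CPM and 35.9 to 46.6 CPM (log2 fold change -0.16, edgeR FDR = 0.507). Of the exonic bases of GGPS1, 37.3% also belong to TBCE on the same strand, so its counts are uncertain.

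None of the 3 enzymes around squalene was among the 4 genes called, and the first and the last had an FDR under 0.1. FDFT1, the squalene synthase, gave 357, 224 and 292 CPM with Apatinib and 199, 197 and 241 CPM in control. Only Apatinib 2 fell within the controls (log2 fold change 0.45, SE 0.17, edgeR FDR = 0.0922). LSS, which closes squalene epoxide into lanosterol, stood at 301, 189.6 and 251 CPM against 156, 161 and 192 CPM, again with Apatinib 2 within the controls (log2 fold change 0.54, SE 0.17, edgeR FDR = 0.0523). LSS was called higher by DESeq2, in edgeR without a filter on low counts, and without Apatinib 2 or without control 3, with an edgeR FDR of 0.0146 to 0.207 over the fits that leave out 1 library. SQLE, the squalene epoxidase between them, gave 64.5 to 89.8 CPM and 85.0 to 98.6 CPM (log2 fold change -0.17, edgeR FDR = 0.469). After GC correction FDFT1 was at 0.41, SQLE at 0.15 and LSS at 0.37 (FDR = 0.0956).

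The sterol ring enzymes split into 2 that were called and 6 that were not. TM7SF2, an ER sterol reductase, had the lowest level per length of the 28 in control and stood at 16.6, 12.6 and 13.7 CPM with Apatinib and 8.08, 7.86 and 8.70 CPM in control. The groups were well apart, with a log2 fold change of 0.80 (SE 0.16, edgeR FDR = 0.0139), and 0.58 after GC correction (FDR = 0.0187). DHCR7, the reductase of the last step to cholesterol, stood at 174, 125 and 142 CPM and at 82.6, 90.4 and 102 CPM. Its log2 fold change was 0.68 (SE 0.15, edgeR FDR = 0.0158), and 0.52 after GC correction (FDR = 0.0144). Without control 1 the FDR was 0.0974 for DHCR7 and 0.0784 for TM7SF2.

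MSMO1, the oxidase that starts removal of the methyl groups left after CYP51A1 has acted, gave 59.1, 44.5 and 72.7 CPM with Apatinib and 45.6, 45.3 and 44.9 CPM in control. The controls were almost equal, and Apatinib 2 lay just below them while the other Apatinib libraries were above. MSMO1 was not called (log2 fold change 0.38, SE 0.16, edgeR FDR = 0.145). It was called after GC correction at 0.77 (FDR = 0.0197), its transcripts being 38.7% GC. Its partners in the same steps gave -0.02 for NSDHL and 0.18 for HSD17B7. EBP, the sterol isomerase, gave 0.24 and SC5D, the desaturase before DHCR7, -0.19, which became 0.24 after GC correction.

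CYP51A1, the lanosterol demethylase, cannot be read with confidence from these counts. It had 34 to 64 counts per library, although its level was 25.9 to 38.5 FPKM. Counts and FPKM together imply a length of 83.7 bases, 0.0261 of its longest annotated transcript, where the median over 13023 genes was 1.17. In GENCODE 29, 79.3% of its exonic bases also belong to the gene AC000120.2 on the same strand. Its log2 fold change was -0.01 (SE 0.25) in counts and 0.02 in FPKM. FDPS also had fewer counts than its FPKM implies, with a ratio of 0.262.

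The transport and storage genes differed among themselves. TMEM97, an ER membrane protein also known as the sigma-2 receptor, had the lowest fold change of the 28. It stood at 53.2, 32.7 and 49.7 CPM with Apatinib and 63.6, 63.5 and 69.1 CPM in control. No Apatinib library reached a control, and the log2 fold change of -0.53 (SE 0.17, edgeR FDR = 0.0592) just missed the call. After GC correction it was again -0.53 (FDR = 0.0636), and DESeq2 called it lower. TMEM97 overlaps IFT20 on the other strand over 11.9% of its exonic bases.

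STARD4, a soluble carrier that moves sterol between membranes, gave 47.4, 55.3 and 65.9 CPM with Apatinib and 54.1, 56.5 and 38.0 CPM in control. The groups overlapped and the log2 fold change was 0.18 (edgeR FDR = 0.509). With GC correction it was called at 0.52 (FDR = 0.0108), its transcripts being 40.6% GC. SOAT1, which esterifies cholesterol for storage in droplets, gave 64.9 to 80.4 CPM and 77.0 to 84.9 CPM, with a log2 fold change of -0.17 that became 0.17 after GC correction. LPIN1, a phosphatidate phosphatase of triglyceride synthesis, is also an SREBP target. It stood at 91.6, 106 and 103 CPM against 82.3, 77.7 and 73.7 CPM. The groups did not overlap, and the log2 fold change was 0.37 (SE 0.12, edgeR FDR = 0.0624).

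The order of libraries recurred across the 28 genes. Apatinib 2 was the lowest Apatinib library for 19 of them and Apatinib 1 the highest for 18. Control 3 was the control nearest to the Apatinib mean for 18. Genes from the same 6 libraries are not independent, so these are counts only.

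GC content ran with the fold change among the 28 genes as it did among all genes. Pearson's r between GC content and log2 fold change was 0.56 over the 28 and 0.40 over 15819 tested genes with a known GC content, a description across genes of the same libraries. The 13 of the 28 above the median GC content of tested genes (50.0%) had a median log2 fold change of 0.33 and held all 4 called genes. The other 15 had a median of -0.16 and no call. INSIG1 was only just above the median GC content, at 49.99% against 49.95%, and its log2 fold change was 0.96 after GC correction. With the trend removed, r was -0.03 over the 28, their median was 0.18, and 22 of 28 were above 0, while 5.03% of all tested genes were then called higher and 3.64% lower. Of the 28, 5 were called higher after correction, namely INSIG1, TM7SF2, DHCR7, MSMO1 and STARD4, and 0 lower. The correction also removes any true effect of treatment that follows GC content.

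**Figure D3:**
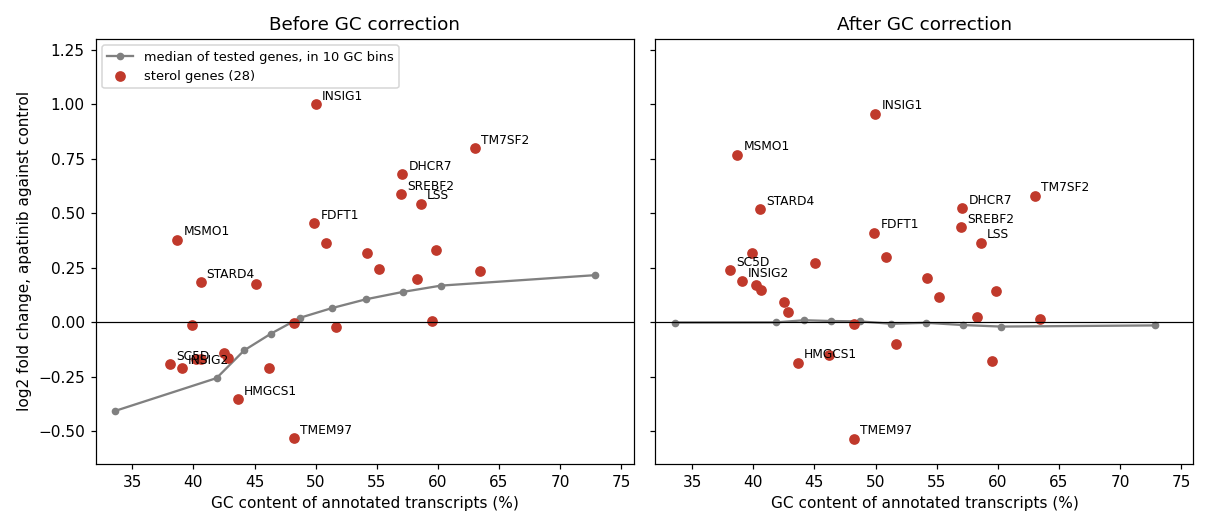
Log2 fold change of the 28 genes against the GC content of their annotated transcripts in percent, before (left) and after (right) GC correction. The grey line joins the median of tested genes in each of 10 bins of GC content, drawn at the middle of the bin, and runs from -0.41 to 0.22 before correction. The 4 called genes lie between INSIG1 at 50.0% GC and TM7SF2 at 63.0% GC.

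Per length of transcript, the 28 genes spanned a wide range of levels in untreated cells. FDFT1 was highest at 75.2 ± 7.63 FPKM (SD, n = 3), followed by FDPS at 46.1 ± 2.24 FPKM and INSIG1 at 32.05 ± 2.55 FPKM. FDPS had fewer counts than its FPKM implies, as given above, so its place is uncertain. INSIG1, SREBF2 (31.5 ± 3.26 FPKM), CYP51A1 (31.3 ± 1.22 FPKM, with the limit on its counts given above) and LSS (29.8 ± 3.46 FPKM) were within each other's spread. INSIG2, at 5.79 ± 1.08 FPKM, HSD17B7, at 5.79 ± 0.61 FPKM, and TM7SF2, at 3.61 ± 0.34 FPKM, were the lowest. With Apatinib INSIG1 stood at 64.6 ± 20.2 FPKM and FDPS at 58.7 ± 13.6 FPKM, within each other's spread, both under FDFT1 at 102 ± 20.1 FPKM. DHCR7 moved from 24.8 ± 1.95 to 39.8 ± 5.23 FPKM and TM7SF2 from 3.61 ± 0.34 to 5.93 ± 0.56 FPKM. The limma test on log2(FPKM + 1) called INSIG1, SREBF2, DHCR7 and TM7SF2 higher, and no gene of the 28 without its filter on low levels.

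**Figure D4:**
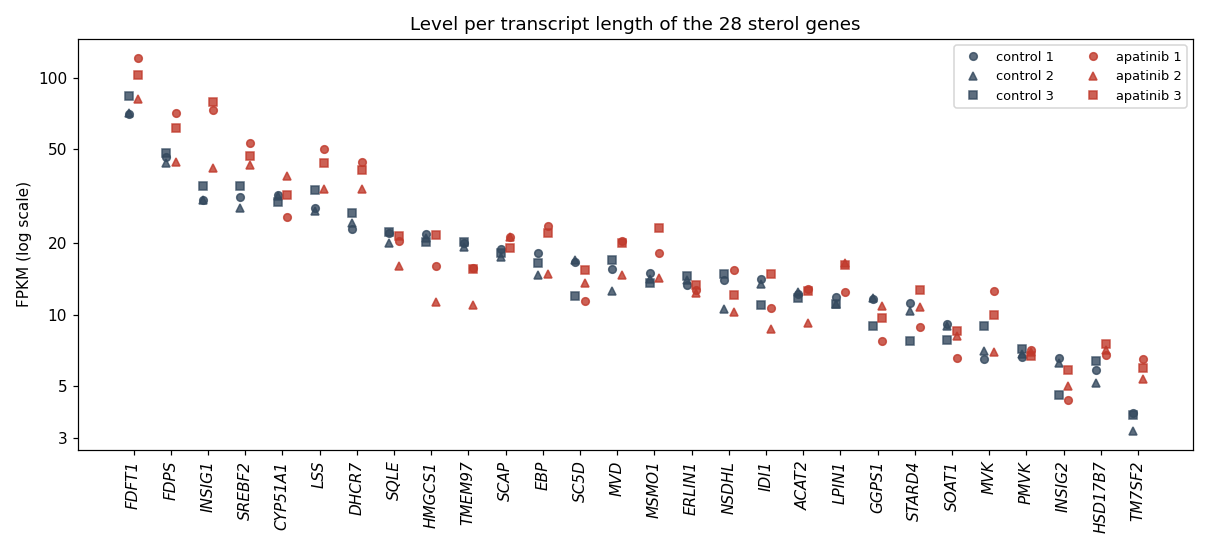
FPKM of the 28 genes in each of the 6 libraries on a log axis, ordered by the control mean, with controls in dark blue and Apatinib in red. FDFT1 is highest and TM7SF2 lowest, and for INSIG1, SREBF2, DHCR7 and TM7SF2 every Apatinib point lies above every control point.

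Other genes of the pathway were taken as 7 lists of 94 genes, of which 89 were tested. Among them 5 were called higher and 3 lower, beside 5.97% and 5.48% of all tested genes, and their median log2 fold change was 0.03. Without control 1, or without control 2, 1 was called higher and 0 lower. After GC correction 3 were called higher and 1 lower. Of 13 genes that carry or cleave SREBP2, such as its COPII coat, 0 were called, and 0 of 15 tested genes of the ER degradation of sterol enzymes, by edgeR or DESeq2. At an unadjusted p under 0.05 in edgeR, 2 genes of the first list were lower and 2 of the second higher. The share of all tested genes under that p is not given here, so these counts are not read as a result about the lists. The 3 lowest p of the first list belonged to PAQR3, a Golgi anchor of SCAP (log2 fold change -0.43, edgeR FDR = 0.119), SEC24A (-0.32, FDR = 0.164) and SEC23A (-0.30, FDR = 0.185), which after GC correction were at -0.16, 0.05 and -0.09, and the second list included the ubiquitin ligase RNF145 (0.31, FDR = 0.0938) and the ER degradation adaptor SEL1L (-0.24, FDR = 0.2).

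Of 6 tested genes of acetyl-CoA supply, 2 were called higher. ACSS2, which makes acetyl-CoA from acetate and is an SREBP target, stood at 164, 142 and 152 CPM with Apatinib and 102, 97.4 and 114 CPM in control (log2 fold change 0.55, SE 0.12, edgeR FDR = 0.0175). The citrate carrier SLC25A1 gave 0.49 (FDR = 0.0891), and 0.21 after GC correction. After GC correction ACSS2 was at 0.46 and under the fold limit.

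Of 5 tested genes of oxysterol and bile acid synthesis, 2 were called higher. CYP27A1, the mitochondrial sterol hydroxylase, stood at 37.6, 37.3 and 31.9 CPM against 17.7, 19.4 and 20.2 CPM. Its groups were far apart, with a log2 fold change of 0.90 (SE 0.13, edgeR FDR = 0.00478) and 0.72 after GC correction. SULT2B1, a sterol sulfotransferase, was near the floor at 0.630 to 1.57 CPM against 0.275 to 0.404 CPM (FDR = 0.0478), and was not called after GC correction (FDR = 0.0635). HSD3B7 gave 0.43 (FDR = 0.207).

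Of 23 tested genes of sterol transport and ester turnover, 1 was called higher and 1 lower. LRP1, a large endocytic receptor for lipoproteins, stood at 535, 558 and 459 CPM with Apatinib and 346, 351 and 365 CPM in control (log2 fold change 0.55, edgeR FDR = 0.0175), and 0.37 after GC correction. OSBPL8, an ER lipid transfer protein, gave 85.1, 84.6 and 110.4 CPM against 186, 189 and 108 CPM (log2 fold change -0.78, FDR = 0.0303). Control 3 was among the Apatinib libraries for OSBPL8, and controls 1 and 2 stood apart. NPC1, which exports sterol from lysosomes, gave 0.44 (FDR = 0.0402), under the fold limit.

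Of 18 genes that use isoprenoids outside sterols, 1 was called lower. CHM, a prenylation escort protein, gave 24.0 to 27.4 CPM with Apatinib and 49.1, 47.7 and 28.95 CPM in control, so that control 3 was again nearest to Apatinib. Its log2 fold change was -0.68 (FDR = 0.0388), and -0.14 after GC correction. NUS1, of dolichol synthesis, gave -0.40, which became 0.019 after GC correction, and ZMPSTE24, a protease of prenylated proteins, gave -0.42. Neither was called. Of 9 genes of electron donors and accessory proteins, LBR, which is also a sterol reductase acting at the step of TM7SF2, was called lower, at 114, 87.6 and 136 CPM against 172, 162 and 156 CPM (log2 fold change -0.54, FDR = 0.0428). After GC correction LBR was at -0.40 (FDR = 0.0974). The haem-binding PGRMC2 gave 0.45 (FDR = 0.0354), under the fold limit, and was called higher after GC correction at 0.70 (FDR = 0.00752). CYB5A gave 0.23. TM7SF2 and LBR, which share a reaction, thus gave 0.80 and -0.54.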

How the data were processed

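RNA was sequenced on the Illumina NovaSeq platform from 3 Apatinib and 3 control samples of SW872 cells, which were grouped by their labels. Per the labels, reads were processed with CASAVA and aligned with STAR 2.7.1a to hg19. The counting and FPKM programs, the annotation and the use of strand are not given in the sources used here. The authors deposited whole-number counts for 57773 genes and an FPKM value per gene and sample. A further column of per-sample values (1 in all), headed with the name of control 3 but held in the FPKM file of Apatinib 1, was not used.

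Counts were tested with edgeR 4.0.16 (R 4.3.3), using filterByExpr, TMM scaling, the quasi-likelihood test and Benjamini-Hochberg adjustment over the 16290 genes kept, with the fold limit and FDR limit of the study's methods. Fold changes from edgeR carry a prior count. DESeq2 1.42.0 on the counts and limma 3.58.1 on log2(FPKM + 1), with genes of mean FPKM under 0.5 left out, were alternatives, as were other scaling, filters, a replicate block and leaving out each library. GC content was the mean over transcripts of GENCODE 29 on GRCh38, matched by gene ID (97.1% of tested genes), and its loess trend (span 0.3) in each library served as an offset. Exon overlaps are from the same annotation, which is not that of the files, and no coordinates were moved between builds. The scripts were tested on simulated counts. Total counts were 17043314 to 22067558 per sample.

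The members and the lists were chosen with earlier results of these data known. All 28 genes are named, and of each other list the up to 3 tested genes with the smallest p, except for items that are not reported here. MARCH6 and PECAM1 had no row of that name in the table and were not analysed here. P-values measure the spread between these 6 samples.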

Additional observations from a re-analysis of the deposited data

How the results depend on the processing

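The 4 genes called higher, INSIG1, TM7SF2, DHCR7 and SREBF2, kept their direction under each alternative run. Their calls did not hold in every one. With controls 1 and 2 summed, 0 of the 28 were called higher, as were 1 and 0 of the other pathway genes higher and lower, and 292 of all genes were called in place of 1866. Limma on log2(FPKM + 1) called 796 of all genes, and 810 with a pseudocount of 0.1, each with 0 other pathway genes lower. With no filter on low values limma called 9 of all genes, with 0 of the 28 and 0 of the other pathway genes in either direction. In that fit 8 of the 28 were higher and 1 lower at an unadjusted p under 0.05, with no share of all genes beside these counts. TMEM97 was the 1 gene of the 28 called lower by DESeq2, by edgeR with no filter on low counts (5 other pathway genes lower) and by the replicate block. With no filter on low counts edgeR called 2559 of all 32596 genes. Same-numbered samples had correlations of -0.26, 0.08 and -0.22, and replicates 1 and 3 did not correlate best with their own number. With 3 samples a group these values cannot show whether same-numbered samples were handled together. The replicate block called 5 of the 28 higher, adding LSS, and 1 lower, and 2215 of all genes. It gave the INSIG1 to INSIG2 difference of 1.15 an exact p = 0.25, the smallest that 3 pairs allow. GC correction left 3 other pathway genes higher and 1 lower.

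Leaving out each library in turn, with and without GC correction, gave 275 to 2594 calls over all genes, 0 to 8 of the 28 higher and 0 to 1 lower, and 1 to 7 other pathway genes higher and 0 to 6 lower. The lowest counts came without control 1 or control 2. The INSIG1 to INSIG2 difference ranged from 0.88 to 1.51 without GC correction. Some fold changes of genes that were not called changed sign. Most were near 0 with all 6 libraries, but HMGCS1 was at -0.35 and MVK at 0.33. GC correction gave log2 fold changes of -0.18 for PMVK, 0.093 for IDI1, 0.046 for GGPS1, 0.15 for SQLE, 0.32 for CYP51A1, 0.24 for SC5D, 0.19 for INSIG2 and 0.17 for SOAT1. ACAT2 was at 0.0067 with no filter on low counts, PMVK at -0.029 with controls 1 and 2 summed, and CYP51A1 at 0.019 in each limma fit. Over the fits that leave out 1 library, the range was -0.12 to 0.17 for ACAT2, -0.61 to 0.068 for HMGCS1, -0.014 to 0.55 for MVK, -0.22 to 0.082 for PMVK, -0.10 to 0.43 for MVD, -0.35 to 0.30 for IDI1, -0.26 to 0.10 for GGPS1, -0.25 to 0.35 for SQLE, -0.21 to 0.54 for CYP51A1, -0.25 to 0.087 for NSDHL, -0.32 to 0.26 for SC5D, -0.020 to 0.28 for SCAP, -0.33 to 0.21 for INSIG2 and -0.24 to 0.25 for SOAT1. The cause of these changes was not tested. CYP51A1 had the fewest counts, 34 to 64 per library, although its FPKM was not low.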
